A study of Mus musculus with 11 samples.

Results

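The genes described here are 10 components of the mammalian circadian clock: Arntl, Npas2, Clock, Cry1, Per1, Per2, Per3, Nr1d1, Nr1d2 and Dbp. They were taken by symbol from a deposited table of read counts for 48897 mouse genes, and all 10 were present with reads in each of the 11 libraries. The members were chosen by their differences between knockout and control arteries in these same libraries, so those differences are given as descriptions, and the counts of members that passed a test between genotypes support nothing. Libraries came from injured mouse arteries collected 7 days after injury. There were 4 groups: wire-injured femoral arteries of flox control mice (n = 3), wire-injured femoral arteries of Nrf3-/- mice (n = 3), ligated carotid arteries of flox control mice (n = 3) and ligated carotid arteries of Nrf3-/- mice (n = 2). Nrf3 is the transcription factor encoded by Nfe2l3. The Cre driver, the cells in which Nrf3 was deleted, the strain, the sex, the age and the hour of day at which arteries were taken are not given in the sources used here. Whether the replicates were separate animals is also not stated, so the p-values below measure only the spread between these libraries, which may be technical.

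In the textbook clock, ARNTL (BMAL1) pairs with CLOCK or its relative NPAS2 and switches on the Per and Cry genes, the Nr1d genes and Dbp through E-box sequences. PER and CRY proteins then repress ARNTL and CLOCK, while the nuclear receptors NR1D1 and NR1D2 (REV-ERB alpha and beta) repress Arntl, Npas2 and Clock. The ARNTL arm and the Dbp and Nr1d arm therefore peak at opposite times of day in many tissues, smooth muscle and endothelium of the artery wall among them, and a single time point samples each gene at one phase only.

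Library totals ran from 43698644 to 55998563 counts, and the femoral knockouts (43698644 to 48392496) lay below the femoral controls (51092766 to 55998563). Levels are given as CPM, counts scaled to the TMM-adjusted library size. Nfe2l3 itself had 37 to 85 counts in the 6 control libraries and 0 to 11 in the 5 knockout libraries, in the direction of the labels. Smooth muscle markers were high in all 11 libraries, with a summed level of 6683 to 13869 CPM over 6 markers. Endothelial markers summed to 686 to 1232 CPM over 5 markers, so RNA of both cell types was present. These sums do not show in which part of the sample the cells lay. In whole-tissue RNA such as this, fewer cells of a type and less RNA per cell cannot be told apart.

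The loop is wired through short promoter elements, and 4 promoter windows are shown because they hold matches to such elements, each of which was matched in only 1 or 2 of the 9 members searched. RefSeq windows of 300 bases (250 before to 50 after an annotated start, assembly GRCm38.p6) were searched on both strands. The patterns were the E-box CACGTG, the E-box variant CACGTT, the D-box TTANGTAA and TNGGTCA, where N is any base. TNGGTCA is a loose pattern for the half-site bound by ROR and REV-ERB receptors, so a match to it need not be such a site. There were 13 windows for 9 of the members, all but Per2. Capitals mark the matches, and each sequence runs 5′ to 3′ along the gene.
Arntl chr7:113207261-113207560 (+ strand): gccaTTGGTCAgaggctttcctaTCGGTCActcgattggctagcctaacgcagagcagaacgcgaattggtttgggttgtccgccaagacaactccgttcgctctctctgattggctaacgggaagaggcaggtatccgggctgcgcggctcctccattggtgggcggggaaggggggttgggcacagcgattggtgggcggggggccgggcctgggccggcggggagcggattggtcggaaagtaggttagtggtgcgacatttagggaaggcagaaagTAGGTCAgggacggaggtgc
Per3 chr4:151044616-151044915 (- strand): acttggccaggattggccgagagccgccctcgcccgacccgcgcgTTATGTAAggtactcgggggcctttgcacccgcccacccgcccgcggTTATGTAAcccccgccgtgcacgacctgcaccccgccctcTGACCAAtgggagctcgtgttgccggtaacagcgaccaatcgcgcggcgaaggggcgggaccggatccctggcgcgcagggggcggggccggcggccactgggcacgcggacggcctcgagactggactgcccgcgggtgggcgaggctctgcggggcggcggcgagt
Cry1 chr10:85185005-85185304 (- strand): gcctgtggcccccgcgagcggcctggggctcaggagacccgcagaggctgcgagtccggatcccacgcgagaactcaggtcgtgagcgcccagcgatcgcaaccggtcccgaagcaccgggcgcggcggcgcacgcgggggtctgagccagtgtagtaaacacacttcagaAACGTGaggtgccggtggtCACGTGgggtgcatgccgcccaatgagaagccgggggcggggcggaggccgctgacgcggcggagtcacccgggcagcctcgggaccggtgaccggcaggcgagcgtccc
Per1 chr11:69098699-69098998 (+ strand): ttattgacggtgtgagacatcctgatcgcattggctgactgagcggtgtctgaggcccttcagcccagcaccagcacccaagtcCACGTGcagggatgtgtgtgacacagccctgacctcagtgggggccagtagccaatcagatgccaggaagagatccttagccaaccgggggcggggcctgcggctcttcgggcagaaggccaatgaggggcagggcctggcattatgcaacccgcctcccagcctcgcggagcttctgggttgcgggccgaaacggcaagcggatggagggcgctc
The Arntl window held 3 matches to TNGGTCA, at 246 and 227 bases before and 31 bases after the start on the plus strand of the gene. An overlapping Arntl window, for a start a little upstream, held 2 of the same matches. The Per3 window held 2 copies of the D-box, the element bound by DBP, TEF and HLF and blocked by NFIL3, at 205 and 158 bases before the start. It also held 1 match to TNGGTCA at 118 bases before the start. The Cry1 window held CACGTG at 60 bases and CACGTT at 79 bases before the start. In Per1, CACGTG lay 166 bases before the start, and in Nr1d1, whose window is not shown, CACGTT lay 28 bases before it. None of the 4 motifs was matched in the windows of Npas2, Clock, Dbp and Nr1d2. Of all 32851 windows of this length, 7.15% held CACGTG, 4.68% CACGTT, 2.32% TTANGTAA and 11% TNGGTCA. Counted per gene, the shares were 8.09%, 5.44%, 2.72% and 12.4% of 27025 genes, and among the 9 members with a window CACGTG was found in 2, CACGTT in 2, TTANGTAA in 1 and TNGGTCA in 2. These matches are a description of the sequence and not of binding in these arteries.

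The activator arm stood lower in the knockout arteries of both vessels. Arntl (chr7:113178470-113314126, plus strand) encodes the obligate activator of the loop. It read 34.1, 22.2 and 41.3 CPM in femoral controls 1, 2 and 3 and 10.7, 8.12 and 9.49 CPM in femoral knockouts 1, 2 and 3. In the carotid it read 38.4, 28.9 and 37.7 CPM in controls 1, 2 and 3 and 9.23 and 11.9 CPM in knockouts 1 and 2. Every control library lay above every knockout library, and control 2 was the lowest control of each vessel. The mean was 3.45 times higher in femoral controls (32.5 ± 9.62 against 9.42 ± 1.27 CPM, SD, n = 3 and 3) and 3.31 times higher in carotid controls (35.0 ± 5.27 against 10.6 ± 1.89 CPM, SD, n = 3 and 2). The fitted log2 change was -1.79 ± 0.22 (SE) in the femoral and -1.73 ± 0.25 in the carotid artery.

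Npas2 (chr1:39193715-39363240, plus strand), the CLOCK relative that also partners ARNTL, had 20.1, 8.03 and 23.2 CPM in femoral controls 1, 2 and 3 and 5.05, 1.04 and 3.09 CPM in femoral knockouts 1, 2 and 3. Its carotid levels were 25.9, 26.0 and 35.7 CPM in controls and 7.36 and 8.24 CPM in knockouts. The groups did not overlap in either vessel, although femoral control 2, at 8.03 CPM, lay close to the highest femoral knockout. The log2 change was -2.48 ± 0.50 in the femoral and -1.90 ± 0.56 in the carotid artery, the lowest of the 10 genes in both. Clock (chr5:76209868-76305000, minus strand), the other ARNTL partner, is reported to cycle little in many tissues. Its levels were 75.2, 63.6 and 76.0 CPM in femoral controls against 55.5, 56.5 and 59.9 CPM in femoral knockouts. Carotid controls had 85.8, 72.5 and 80.8 CPM of Clock and carotid knockouts 52.4 and 60.2 CPM. These ranges were separate too, but the log2 changes were small, at -0.32 ± 0.10 and -0.50 ± 0.11.

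**Figure D1:**
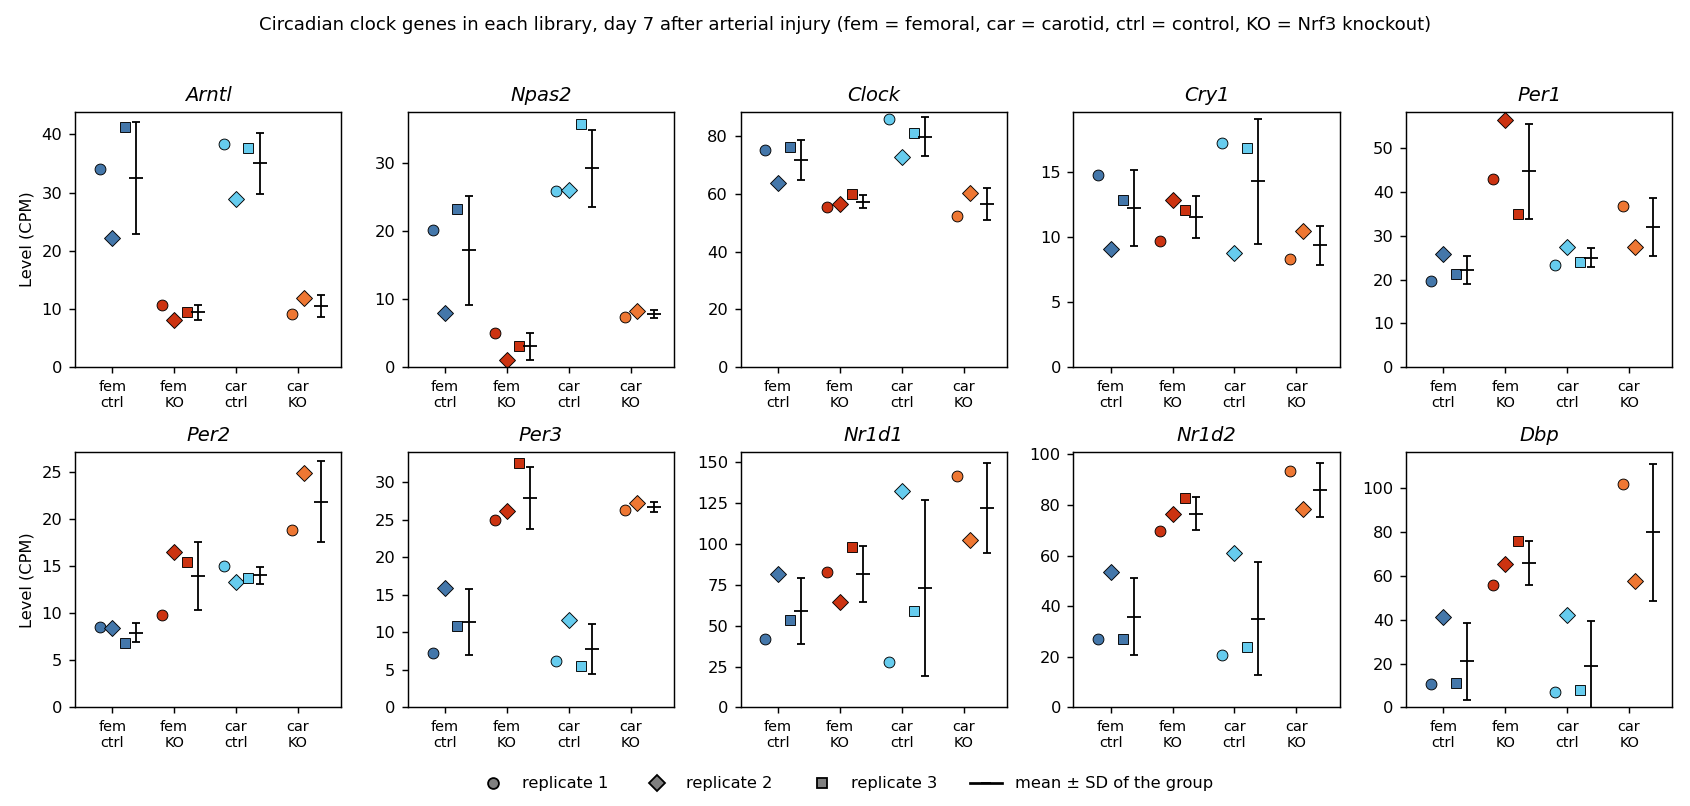
Level of each clock gene in CPM (vertical axis, from 0) in every library of the 4 groups (horizontal axis); symbol shape gives the replicate number, and the black mark and bar give the group mean ± SD, with bars that would pass below 0 ending there. Arntl, Npas2 and Clock are lower and Per3, Nr1d2 and Dbp higher in all knockout libraries than in the controls of the same vessel, and control replicate 2 (diamond) of both vessels lies on the knockout side of the other controls for most genes.

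Of the repressors, the Per genes stood higher in the knockouts and Cry1 did not separate the groups. Per3 (chr4:150997018-151044723, minus strand), a PER family member that is not required for behavioural rhythms in mice, read 7.31, 16.0 and 10.8 CPM in femoral controls and 25.0, 26.2 and 32.6 CPM in femoral knockouts. Its carotid levels were 6.21, 11.6 and 5.56 CPM in controls and 26.3 and 27.2 CPM in knockouts. All 5 knockout libraries thus lay between 25.0 and 32.6 CPM and all 6 controls at 16.0 CPM or less. The log2 change was 1.30 ± 0.31 in the femoral and 1.78 ± 0.34 in the carotid artery, or 2.46 and 3.43 times the control mean.

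Per1 (chr11:69095138-69109965, plus strand) is a core repressor and is also induced directly by glucocorticoid and cAMP signals. Femoral controls 1, 2 and 3 had 19.7, 25.7 and 21.3 CPM and femoral knockouts 42.9, 56.3 and 34.8 CPM, a log2 difference of 1.01 ± 0.18. Carotid controls had 23.4, 27.5 and 24.1 CPM and carotid knockouts 36.7 and 27.4 CPM, a log2 difference of 0.36 ± 0.20. The femoral groups were apart, whereas carotid knockout 2 fell within the range of the carotid controls. Per2 (chr1:91415977-91459402, minus strand), the repressor required for sustained rhythms in mice, had 8.55, 8.42 and 6.82 CPM in femoral controls and 9.77, 16.5 and 15.5 CPM in femoral knockouts. Carotid Per2 stood at 15.0, 13.3 and 13.7 CPM in controls and 18.8 and 24.8 CPM in knockouts. Both pairs of groups were separate, with log2 changes of 0.81 ± 0.20 and 0.64 ± 0.21, and femoral knockout 1 stood close to the controls.

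Cry1 (chr10:85131700-85185054, minus strand), the cryptochrome repressor that in mouse tissues peaks later than the Per genes, read 14.8, 9.07 and 12.8 CPM in femoral controls and 9.70, 12.9 and 12.1 CPM in femoral knockouts. The femoral groups overlapped, and the log2 change of -0.08 ± 0.26 turned positive under 3 of 19 alternative settings, up to 0.08. In the carotid artery Cry1 read 17.2, 8.76 and 16.8 CPM in controls and 8.30 and 10.4 CPM in knockouts. Carotid control 2 fell within the knockout range and the other 2 controls lay well above it, for a log2 change of -0.61 ± 0.30.

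The REV-ERB receptors and Dbp had higher means in knockouts, and in each of them control 2 lay above the other controls of its vessel. Nr1d2 (chr14:18204056-18239106, minus strand), which encodes REV-ERB beta, read 26.9, 53.4 and 27.1 CPM in femoral controls and 69.9, 76.5 and 82.9 CPM in femoral knockouts. Carotid controls had 20.7, 60.9 and 23.7 CPM of Nr1d2 and carotid knockouts 93.6 and 78.4 CPM. Knockouts were above all controls in both vessels, but control 2 was about midway, and the log2 changes were 1.09 ± 0.39 and 1.29 ± 0.42.

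Nr1d1 (chr11:98767932-98775377, minus strand), which encodes REV-ERB alpha, the main repressor of Arntl, had 41.9, 81.6 and 53.4 CPM in femoral controls and 82.7, 64.2 and 98.3 CPM in femoral knockouts. Its carotid levels were 28.0, 132 and 58.7 CPM in controls and 141 and 102 CPM in knockouts. Control 2 lay within the knockout range in both vessels, so the groups overlapped, and the log2 changes of 0.47 ± 0.45 and 0.74 ± 0.50 were close to their errors. The 3′ end of Nr1d1 shares 1075 bases with Thra, the thyroid hormone receptor gene on the opposite strand, which had 3329 to 10662 counts and was highest in carotid control 2. The strand setting of the counting is not given, so reads from these 2 genes in the shared stretch cannot be told apart.

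Dbp (chr7:45705093-45710203, plus strand) encodes a D-box activator and is a direct output of ARNTL and CLOCK. It read 10.7, 41.5 and 11.1 CPM in femoral controls 1, 2 and 3 and 55.9, 65.4 and 75.9 CPM in femoral knockouts 1, 2 and 3. In the carotid artery it read 6.99, 42.3 and 7.82 CPM in controls 1, 2 and 3 and 102 and 57.8 CPM in knockouts 1 and 2. Knockouts did not overlap with controls, yet on the log2 scale control 2 of each vessel stood nearer to the knockouts than to the other 2 controls. The log2 change was 1.64 ± 0.71 in the femoral and 2.07 ± 0.76 in the carotid artery, with mean ratios of 3.12 and 4.19. Dbp shares 741 bases with Sphk2, a sphingosine kinase gene on the opposite strand with 1860 to 3268 counts.

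**Figure D2:**
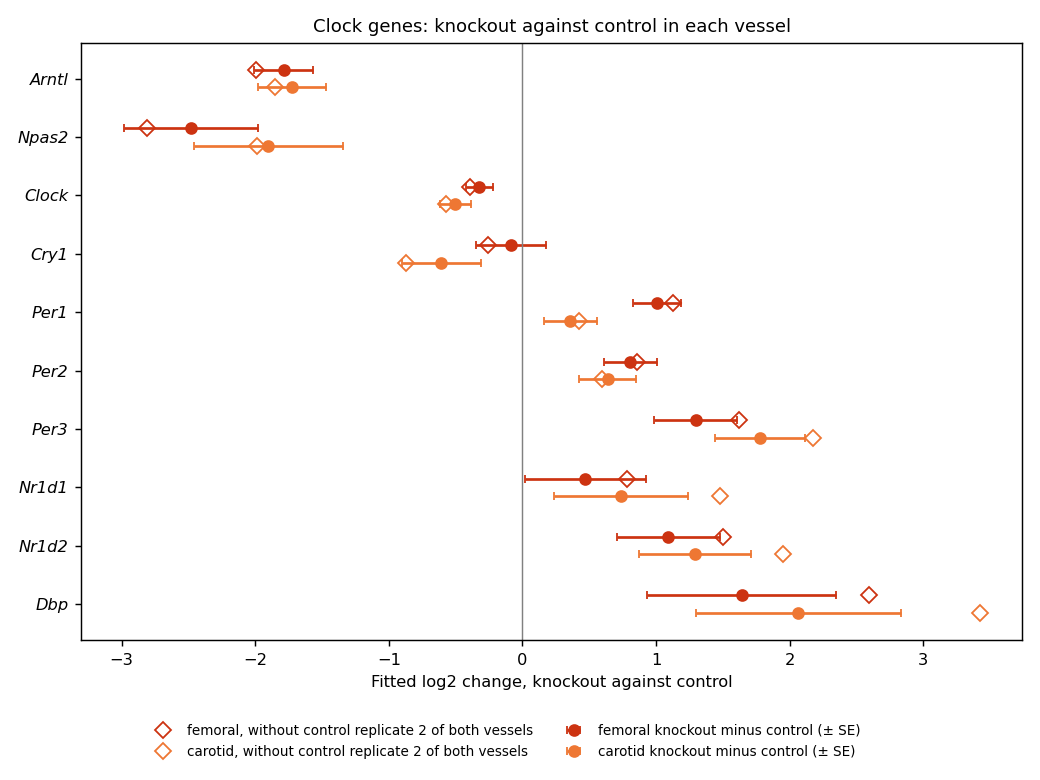
Fitted log2 change of each clock gene, knockout against control (horizontal axis), in the femoral and the carotid artery; filled circles use all 11 libraries with bars of ± SE, and open diamonds leave out control replicate 2 of both vessels. Arntl and Npas2 lie between -2.48 and -1.73 with all libraries, and Dbp moves from 1.64 to 2.59 and from 2.07 to 3.42 when the control 2 libraries are left out.

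By count, 3 of the 10 genes passed the threshold of 0.05 (quasi-likelihood fit, adjusted over all genes tested) in the femoral artery, where 2.51% of the 21343 genes tested did. Of these, 2 were lower (Arntl and Npas2, beside 0.665% of all genes) and 1 higher (Per1, beside 1.84%). In the carotid artery 2 of 10 did, against 0.923% of all genes, 1 lower (Arntl, beside 0.262%) and 1 higher (Per3, beside 0.661%). Groups without overlap were found for 8 of 10 genes in the femoral artery, where 25.4% of all genes had none, with 3 lower (beside 12.1%) and 5 higher (beside 13.3%). In the carotid artery they were found for 7 of 10 genes, where 31.4% of all genes had none, with 3 lower (beside 15%) and 4 higher (beside 16.4%). These comparisons chose the members, so nothing is read from the shares. The femoral count was 1 without femoral control 1, femoral control 3 or femoral knockout 2. The carotid count was 0 without carotid control 3 or carotid knockout 1, 1 without femoral control 3, femoral knockout 1, femoral knockout 2, carotid control 1 or carotid knockout 2, and 4 without carotid control 2. The median log2 change of the 10 genes was 0.64 in the femoral and 0.50 in the carotid artery, beside -0.02 and 0.00 over all genes tested, and it joins genes of opposite direction. Both vessels showed the same sign for all 10 genes, which the choice of members had in view. The difference between the vessels in the knockout effect was smaller than its standard error for 6 genes and was -0.65 ± 0.27 for Per1, -0.52 ± 0.39 for Cry1, -0.18 ± 0.15 for Clock and 0.48 ± 0.46 for Per3 on the log2 scale (carotid minus femoral).

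The order of levels within the loop also differed between genotypes. Per kilobase of the gene length in the table, Nr1d1 was the highest in femoral controls at 21.3 ± 7.38 CPM per kilobase (SD, n = 3). Dbp (8.37 ± 7.0), Nr1d2 (7.72 ± 3.28), Clock (7.07 ± 0.685) and Arntl (5.69 ± 1.68) followed and did not differ beyond their spread. Npas2 (3.83 ± 1.79), Cry1 (3.81 ± 0.906) and Per1 (3.02 ± 0.426) came next, also within their spread, and Per2 (1.31 ± 0.160) and Per3 (1.04 ± 0.398) were lowest. In femoral knockouts Nr1d1 (29.6 ± 6.18) and Dbp (26.1 ± 3.97) were highest and within their spread of each other, followed by Nr1d2 (16.5 ± 1.41). Per1 (6.07 ± 1.47) and Clock (5.65 ± 0.227) stood next, then Cry1 (3.60 ± 0.511), Per3 (2.55 ± 0.375) and Per2 (2.30 ± 0.598). Arntl (1.65 ± 0.222) and Npas2 (0.684 ± 0.449) had moved to the bottom of the order. Carotid knockouts had the same 2 genes lowest, Arntl at 1.85 ± 0.330 and Npas2 at 1.74 ± 0.140 CPM per kilobase (n = 2).

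Control replicate 2 stood apart from the other controls of its vessel in nearly all of these genes. Femoral control 2 lay on the knockout side of the other 2 femoral controls for 9 of the 10 genes, where 39.4% of all genes tested did so. Carotid control 2 did so for 8 of 10 genes, where 41.2% of all genes did. The same count was 2 for control 1 and 0 for control 3 in each vessel. The shift was largest for Dbp, which in control 2 was 3.80 times the mean of the other 2 controls in the femoral and 5.72 times in the carotid artery. Nr1d2 was at 1.98 and 2.74 times, Nr1d1 at 1.71 and 3.06 times and Per3 at 1.76 and 1.97 times the other controls, whereas Arntl was at 0.590 and 0.761 times. Per2 was the femoral exception, with control 2 within the other controls. The carotid exceptions were Per2, where control 2 lay below the other controls, and Npas2, where at 26.0 CPM it lay within them, close to the lower one (25.9 CPM).

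A single ratio of the 2 arms shows this placement. The log2 ratio of Dbp to Arntl (CPM) was between -2.46 and -1.67 in control replicates 1 and 3 of both vessels, 0.90 in femoral control 2 and 0.55 in carotid control 2, and between 2.28 and 3.46 in the 5 knockouts. The 2 control 2 libraries therefore fell between the other controls and the knockouts without reaching either. With control 2 of both vessels left out, a setting chosen after these values were seen, the remaining controls and the knockouts were apart for 9 of 10 genes in the femoral artery (all but Cry1), where 33.4% of all genes were, and for 10 of 10 in the carotid artery, where 43.3% were. The log2 change of Dbp then became 2.59 and 3.42, that of Nr1d1 0.78 and 1.48, that of Nr1d2 1.5 and 1.95, and that of Arntl -1.99 and -1.85, femoral first. Members with an adjusted p under 0.05 then numbered 4 in each vessel (Arntl, Dbp, Nr1d2 and Per3), beside 0.32% of 20954 genes in the femoral and 0.472% in the carotid artery. This setting removes the controls nearest to the knockouts in these genes, so nothing is read from these counts. Femoral control 2 had the highest summed skeletal muscle markers of its group (4672 CPM) and carotid control 2 the lowest of its group (22.0 CPM).

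**Figure D3:**
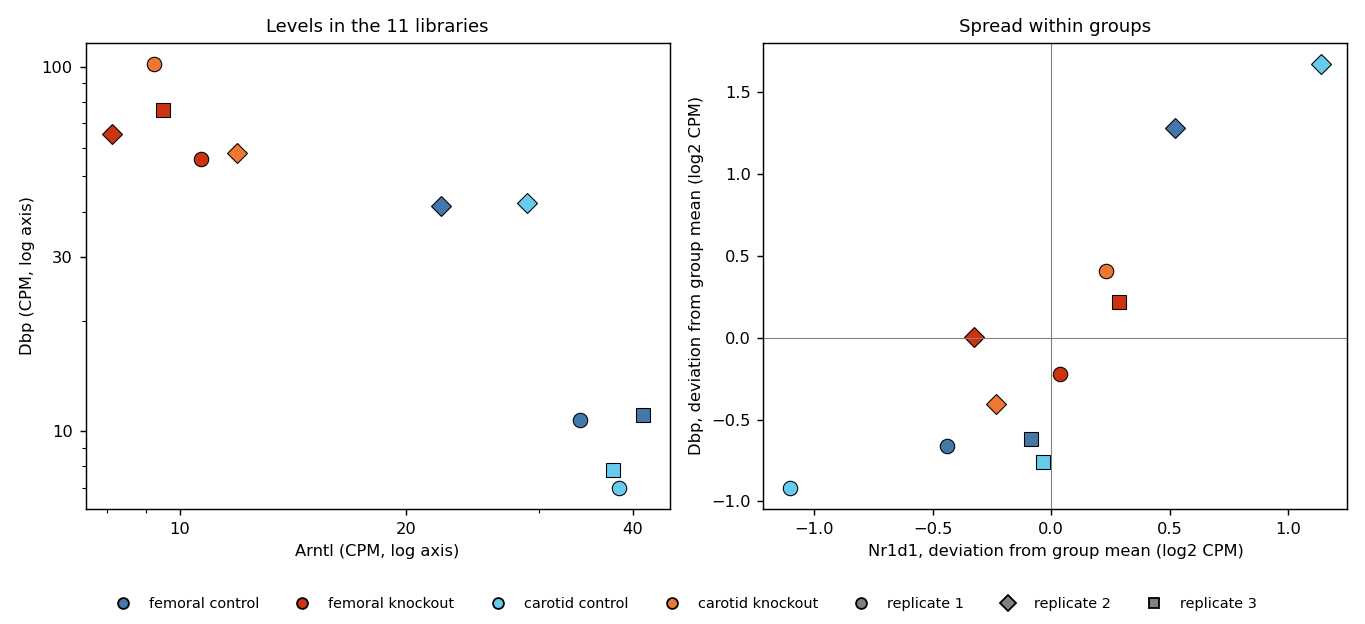
Left, Dbp against Arntl in CPM (both axes logarithmic) in the 11 libraries; right, deviation of Dbp from its group mean against that of Nr1d1 in log2 CPM, with colour for the group and symbol for the replicate number. On the left the 4 control libraries numbered 1 or 3 sit at low Dbp and high Arntl, the 5 knockouts at the opposite corner and the 2 control 2 libraries (diamonds) between them.

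Within groups, after subtraction of each group's mean log2 CPM, the 6 pairs of clock genes examined differed in how far they moved together across the 11 libraries. The members were chosen by differences between groups, and a choice made by test also depends on the spread within groups. Control 2 deviated most among the controls of each vessel, upwards in both, for Dbp (1.28 femoral, 1.67 carotid) and Nr1d1 (0.52 and 1.14). The permutation counts these 2 libraries as independent, so its p-values are too small if they share a shift. Nr1d1 and Dbp moved together, with Pearson's r = 0.87 (exact two-sided permutation within groups, p = 0.0116, Benjamini-Hochberg adjusted p = 0.0347 over the 6 pairs) and Spearman's rho = 0.83 (exact permutation p = 0.00926, adjusted p = 0.0556). Arntl and its partner Npas2 had r = 0.77 (exact permutation p = 0.00926, adjusted p = 0.0347) and rho = 0.73 (exact permutation p = 0.0579, adjusted p = 0.116). For Arntl and Dbp the relation was negative, with r = -0.83 (exact permutation p = 0.0255, adjusted p = 0.0509) and rho = -0.71 (exact permutation p = 0.0231, adjusted p = 0.0694). Arntl and Nr1d1 (r = -0.55, exact permutation p = 0.118, adjusted p = 0.177; rho = -0.50, p = 0.204), Arntl and Per2 (r = -0.26, p = 0.438, adjusted p = 0.525; rho = -0.28, p = 0.475) and Per2 and Per3 (r = 0.03, p = 0.887, adjusted p = 0.887; rho = -0.01, p = 0.993) did not pass. The smallest p that this design allows is 0.00231. These permutations shuffle each group on its own, although the replicate numbers pair the femoral samples. With same-numbered femoral libraries permuted together, a test added after seeing the data whose smallest p is 0.0139, Nr1d1 with Dbp and Arntl with Dbp each reached that smallest p (exact permutation, adjusted p = 0.0417), whereas Arntl with Npas2 no longer passed (exact permutation p = 0.0556, adjusted p = 0.111).

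The 2 libraries farthest from the median of the first gene were then left out. For the 3 pairs of Arntl with Npas2, Dbp and Nr1d1 these were the control 2 libraries of both vessels, and r became 0.70, -0.64 and 0.07. For Nr1d1 and Dbp, without carotid controls 1 and 2, r was 0.84. None of the 6 pairs then passed (adjusted exact permutation p from 0.208 to 0.875), but with 9 libraries the smallest p was 0.0139 or 0.0208 before adjustment over 6 pairs, so a pair could hardly pass. The r of Arntl with Nr1d1 changed sign, and thus rested on the libraries left out.

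The vessels were tested, because the comparison of carotid with femoral arteries did not itself choose the genes. It reuses the control and knockout libraries of the comparisons that did, so its p-values for the members are not free of that choice. Vessel and injury model differ together and cannot be told apart. Among control arteries, 1 of the 10 clock genes passed, where 6.21% of all genes tested did. Per2 had 15.0, 13.3 and 13.7 CPM in carotid controls and 8.55, 8.42 and 6.82 CPM in femoral controls, with no overlap. It was higher in carotid controls by 0.82 ± 0.20 on the log2 scale (edgeR quasi-likelihood test, adjusted p = 0.0340), and the call was lost without any 1 of the 6 control libraries (adjusted p = 0.0739, 0.0809 and 0.107 without femoral controls 1, 2 and 3, and 0.0753, 0.0643 and 0.0766 without carotid controls 1, 2 and 3). Per2 was also higher in carotid than in femoral knockouts in all libraries, by 0.65 ± 0.21, but did not pass in the main fit (adjusted p = 0.118). With the replicate block Per2 passed there (edgeR quasi-likelihood test, adjusted p = 0.0345 with numbers from titles and 0.0370 from descriptions). Whether the replicate numbers pair the knockout vessels cannot be told. With numbers from titles, 1272 of the 21343 genes passed in that setting.

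Npas2 was the other clock gene whose vessels did not overlap in either genotype. In all, 2 of 10 genes were higher without overlap in carotid controls, where 11.7% of all genes were, and 3 of 10 in carotid knockouts, where 18.6% were. It was higher in the carotid artery by 0.77 ± 0.46 among controls (adjusted p = 0.396) and by 1.35 ± 0.53 among knockouts (adjusted p = 0.191), and neither passed. Nr1d1 did not overlap among knockouts (64.2 to 98.3 CPM femoral, 102 and 141 CPM carotid), with a log2 difference of 0.58 ± 0.50 (adjusted p = 0.573). The other 8 genes in controls had adjusted p from 0.361 (Per3, -0.55 ± 0.31) to 0.983 (Nr1d2, -0.03 ± 0.38). Among knockouts no clock gene passed in the main fit (0 of 10, where 4.91% of all genes did). Per1 had a log2 difference of -0.48 ± 0.20 (edgeR quasi-likelihood test, adjusted p = 0.221). In DESeq2, also after adjustment, 0 of the 10 passed, where 2025 of 21667 genes did.

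Beyond the 10 genes, 49 further clock-related genes in 5 lists were examined, of which 48 passed the filter on low counts and Rorb did not. These lists were drawn up with earlier results of these data known. Their counts and p-values in the knockout comparisons, here and below, are therefore descriptions, and nothing is read from the shares. In the femoral knockouts 2 of the 48 passed, both higher, where 2.51% of all genes did, and in the carotid knockouts 1 of 48, where 0.923% did. With the replicate numbers as a block, which pair the femoral samples, 7 of 48 passed in the femoral artery, where 5.73% of all genes did. The median log2 change of the 48 genes was 0.07 in each vessel.

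Among 11 other clock transcription factors and repressors tested, none passed in the femoral artery and 1 in the carotid artery. That gene was Bhlhe41 (DEC2), an E-box repressor. It read 14.3, 15.5 and 12.3 CPM in carotid controls and 33.8 and 24.4 CPM in carotid knockouts, with no overlap, and rose by 1.05 ± 0.19 on the log2 scale (edgeR quasi-likelihood test, adjusted p = 0.0332). The call was lost in 10 of 19 alternatives, with adjusted p from 0.000165 to 0.257. These left out femoral control 2, femoral knockout 1, carotid control 1, 2 or 3, carotid knockout 1 or control 2 of both vessels, fitted the compared groups alone, or used the replicate block under either numbering (adjusted p = 0.170 with numbers from titles). Ciart (CHRONO), a repressor of ARNTL and CLOCK, had the smallest p in the femoral artery. It read 0.871, 1.99 and 0.864 CPM in femoral controls and 3.89, 4.15 and 3.96 CPM in femoral knockouts, a log2 change of 1.69 ± 0.40 (adjusted p = 0.0538; 0.0444 with the replicate block). Its carotid values were 0.854, 1.82 and 0.765 CPM in controls and 3.94 and 2.96 CPM in knockouts (1.59 ± 0.43, adjusted p = 0.120). As in Dbp, control 2 was the highest control in both vessels.

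Tef and Hlf, which with Dbp form the PAR bZIP family of D-box activators, and Nfil3, which represses at the same element, are given because of that role; they were singled out after their values were seen. Tef read 32.5, 67.1 and 43.4 CPM in femoral controls and 77.4, 110.1 and 113.0 CPM in femoral knockouts. Carotid Tef read 30.3, 69.5 and 36.5 CPM in controls and 111.1 and 112.9 CPM in knockouts. The groups were apart in both vessels, with log2 changes of 1.07 ± 0.32 (adjusted p = 0.102; 0.0382 with the replicate block) and 1.30 ± 0.35 (adjusted p = 0.118). Hlf, a gene of low level, read 1.40, 3.96 and 2.30 CPM in femoral controls and 4.90, 7.67 and 11.2 CPM in femoral knockouts, and it was also apart in both vessels without passing (adjusted p = 0.136 and 0.286). Nfil3 had negative log2 changes, -0.26 ± 0.23 (adjusted p = 0.580) and -0.87 ± 0.26 (adjusted p = 0.159), and only its carotid groups were apart. Without control 2 of both vessels, Ciart (2.21 and 2.08) and Tef (1.40 and 1.74) had an adjusted p of 0.0131 and 0.0346 in the femoral and of 0.0219 and 0.0218 in the carotid artery.

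**Figure D4:**
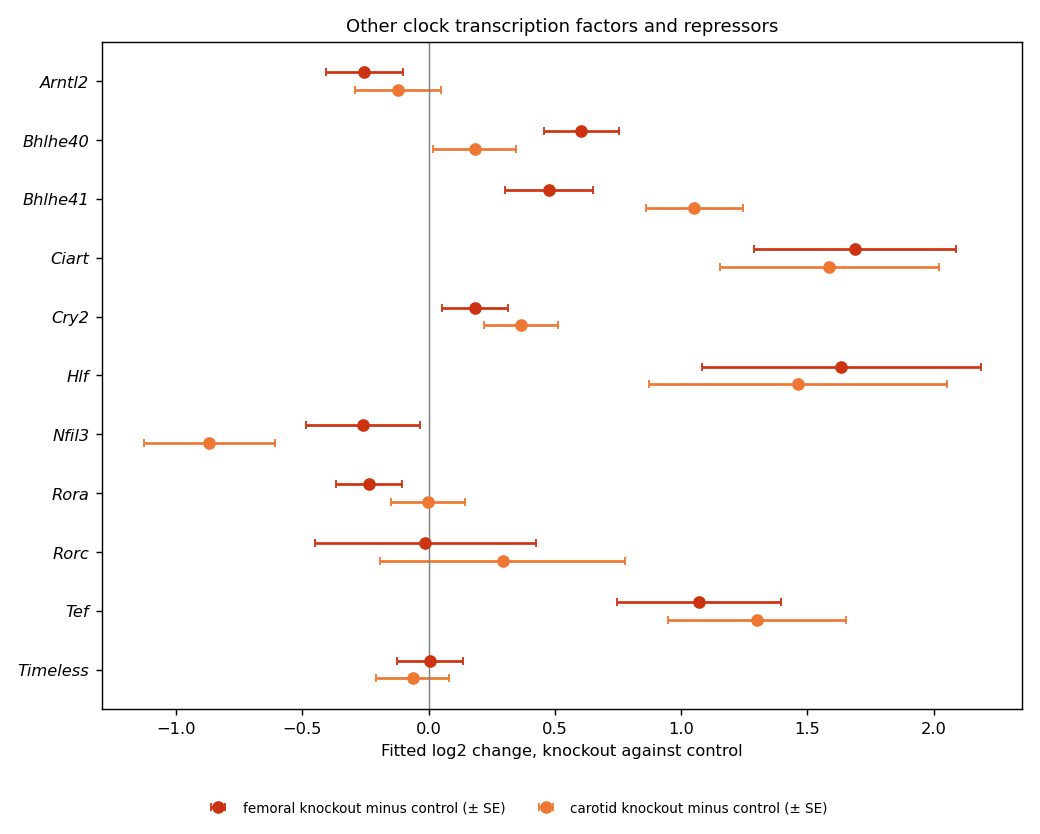
Fitted log2 change, knockout against control, ± SE (horizontal axis) of the 11 tested genes among the other clock transcription factors and repressors, in the femoral and the carotid artery. Ciart, Hlf and Tef have positive changes in both vessels, between 1.07 and 1.69, and Nfil3 negative changes of -0.26 and -0.87, while only Bhlhe41 in the carotid artery passed the test.

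None of the 15 clock protein modifiers (kinases, ubiquitin ligases and co-repressors that act on clock proteins) passed in either knockout comparison. Their median log2 change was 0.00 in both vessels, and the smallest p belonged to Csnk1e, a kinase of the PER proteins, at -0.12 ± 0.07 (adjusted p = 0.372) and -0.25 ± 0.08 (adjusted p = 0.178). Of 13 clock output genes none passed, with 11 positive changes in the femoral and 10 in the carotid artery. Over all 21343 genes tested, 10020 changes were positive in the femoral and 10771 in the carotid artery. Bhlhe40, Tef, Hlf and Nfil3 are counted both here and among the other clock transcription factors and repressors. The leading output genes were Bhlhe40 in the femoral artery (0.60 ± 0.15, adjusted p = 0.0585) and Cdkn1a, a cell cycle inhibitor, in the carotid artery (-0.73 ± 0.17, adjusted p = 0.0742). Thbd, a vascular gene linked to the clock that encodes thrombomodulin, did not pass either, at -0.41 ± 0.15 (adjusted p = 0.154) and -0.40 ± 0.16 (adjusted p = 0.296).

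Of 10 genes induced by glucocorticoids, which can set peripheral clocks, 2 passed in femoral knockouts, both higher, where 2.51% of all genes did. Changes were positive for 9 of the 10 genes in the femoral and 8 in the carotid artery. Their median log2 change was 0.34 in the femoral and 0.44 in the carotid artery. Mt2, a metallothionein, read 322, 261 and 177 CPM in femoral controls and 616, 875 and 507 CPM in femoral knockouts, a change of 1.39 ± 0.24 (adjusted p = 0.0217). Mt1 changed by 1.14 ± 0.20 (adjusted p = 0.0250). Both are also induced by metals and oxidative stress, and both calls were lost without femoral control 2, femoral control 3, femoral knockout 1, femoral knockout 2 or control 2 of both vessels. That of Mt1 was also lost with the skeletal muscle covariate (adjusted p = 0.0510). The highest adjusted p, without control 2 of both vessels, was 0.122 for Mt2 and 0.112 for Mt1. In carotid knockouts Mt2 did not pass (1.02 ± 0.26, adjusted p = 0.100). The glucocorticoid targets Fkbp5, Tsc22d3, Zbtb16 and Klf9 gave no call in either knockout comparison, and femoral Fkbp5 was at 0.36 (adjusted p = 0.268). Between control vessels, 4 of the 48 wider genes passed, where 6.21% of all genes did. Sgk1 (0.84 ± 0.14, adjusted p = 0.00569), Thbd (0.68 ± 0.15, adjusted p = 0.0204) and the deadenylase gene Noct (0.50 ± 0.12, adjusted p = 0.0371) were higher and Fkbp5 (-0.64 ± 0.17, adjusted p = 0.0489) lower in the carotid artery. The Sgk1 call held in all 19 alternatives. Noct, Thbd and Fkbp5 did not pass in 10, 4 and 9 of them, the omission of femoral control 2 or 3 or carotid control 3 among these for each. In knockouts only Thbd passed (0.69 ± 0.16, adjusted p = 0.0348), where 4.91% of all genes did, and it did so in 9 of 19 alternatives. No wider gene passed in the difference of the knockout effects between vessels (0 of 48), where 0.00469% of all genes did.

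Markers of some other cells differed with genotype beside the clock genes. Smooth muscle markers were lower in knockouts for 6 of 6 genes in the femoral (median log2 change -0.24) and 5 of 6 in the carotid artery (-0.26), and 0 passed. Adipocyte markers summed to 304 to 556 CPM in femoral controls and 121 to 526 CPM in femoral knockouts. In the carotid artery they summed to 40.2 to 278 CPM in controls and 155 to 360 CPM in knockouts, and 0 passed in either vessel. T cell markers summed to 9.91 to 19.4 CPM in femoral controls and 33.8 to 43.9 CPM in femoral knockouts, and to 4.90 to 9.32 CPM in carotid controls and 37.7 to 41.9 CPM in carotid knockouts. All 6 T cell markers were higher without overlap in both vessels, where 13.3% (femoral) and 16.4% (carotid) of all genes were. In the femoral artery 4 of 6 passed, where 2.51% of all genes did, and in the carotid artery 5 of 6, where 0.923% did. The same shares of calls stand beside the other markers below. All markers were chosen with earlier results known, so nothing is read from these shares. For T cell markers control 2 was not the highest control in either vessel (13.1 and 4.90 CPM). Skeletal muscle markers summed to 480 to 4672 CPM in femoral controls and 166 to 1367 CPM in femoral knockouts, with all 8 lower in knockouts, 0 of 8 past the test and overlapping ranges. In the carotid artery they summed to 22.0 to 605 CPM in controls and 6.90 to 450 CPM in knockouts. Neutrophil markers summed to 60.6 to 149 CPM in femoral controls and 149 to 442 CPM in femoral knockouts, and to 81.3 to 241 CPM in carotid controls and 222 to 336 CPM in carotid knockouts. Of these 4 neutrophil markers, all were higher in knockouts of both vessels and 0 passed. Macrophage markers summed to 721 to 802 CPM in femoral controls and 934 to 1231 CPM in femoral knockouts, with all 5 higher and 2 of 5 past the test, and to 927 to 1241 CPM and 950 to 1289 CPM in carotid controls and knockouts, where 0 passed. Endothelial markers summed to 993 to 1232 CPM in femoral controls and 812 to 1068 CPM in femoral knockouts. All 5 were lower, 3 of them without overlap, where 12.1% of all genes were, and 0 passed the test. Carotid knockouts (938 to 1108 CPM) overlapped with carotid controls (686 to 1096 CPM). No marker was at 0 in any library. With the skeletal muscle level as a covariate, Arntl was the 1 clock gene with an adjusted p under 0.05 in each vessel, beside 0.731% of all genes in the femoral and 0.712% in the carotid artery, and the log2 changes of the 10 genes kept their sign in both knockout comparisons except for femoral Cry1 (0.01). The part of T cells, neutrophils, macrophages, endothelium, smooth muscle and adipocytes in the clock values was not tested.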

How the data were processed

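RNA-seq of polyA RNA was available as 1 deposited table of raw read counts per gene for all 11 libraries. Per the submitters' processing notes, HISAT2, HTSeq, DESeq, DESeq2, edgeR and the build mm9 were used, with no version or role given; the strand setting of the counting is not given in the sources used here. The deposited gene positions follow GRCm38: of 39064 genes joined to RefSeq by NCBI ID, 99.85% overlapped their GRCm38 position, and all 10 clock genes did. Groups and replicate numbers came from the sample titles; the description of carotid knockout 2 carries the number 3. No column of another sample was present (0), and 2 symbols are repeated in the table.

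From the counts as deposited, edgeR 4.0.16 (R 4.3.3) fitted 4 group means over all 11 libraries with TMM scaling (factors 0.963 to 1.03). filterByExpr kept 21343 of 48897 genes (43.6%), and glmQLFTest p-values were adjusted by Benjamini-Hochberg over these genes at 0.05. Each standard error was obtained from the log2 change and its F statistic. There were 7 residual degrees of freedom, and the common dispersion corresponds to a coefficient of variation of 25.6%. Correlations within groups used log2 CPM with a prior count of 2. CPM per kilobase used the length in the table. The procedure was tested on simulated counts.

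The 10 members, the wider lists and the markers were chosen with earlier results of these data known. Members, Nfe2l3, every wider gene past the threshold (up to 4 for each list and comparison) or otherwise the 1 of smallest p are named. For likeness, the 4 genes with the highest Pearson r to Arntl, Nr1d1 and Dbp among 11680 genes of at least 5 CPM on average are named. Other genes are named as chosen after their values were seen.

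By correlation, replicate numbers pair the femoral samples, although the labels state no pairing. Across genes, deviations from the group means of same-numbered femoral control and knockout libraries correlated at 0.172, 0.180 and 0.115. Femoral control and knockout libraries of unlike number correlated at -0.184 to 0.0114. The numbers from titles did not pair carotid control with carotid knockout (-0.118 and -0.150). Between control vessels, same-numbered libraries correlated at 0.108, -0.0428 and 0.140, and those of unlike number at -0.1485 to 0.0284. Whether the control vessels are paired cannot be told from these values. Between knockout vessels, same-numbered libraries correlated at 0.131 and 0.104 with numbers from titles, and at 0.131 and 0.0289 with numbers from descriptions. The deviations of the 2 carotid knockouts mirror each other, so whether these samples are paired cannot be told. Alternatives were DESeq2 1.42.0, its size factors, no filter beyond 1 count, a covariate for skeletal muscle markers, fits of the compared groups alone, the replicate block, and leaving out each library. One gene of the wider lists is not reported here.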

Additional observations from a re-analysis of the deposited data

How the results depend on the processing

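In the 2 knockout comparisons, the log2 change of each clock gene kept its sign in all 19 alternatives, except femoral Cry1. With DESeq2's size factors the median of all genes shifted by at most 0.0125, and no count of calls moved by over 1.5 times. The cause of the differences below was not tested, beyond the fewer libraries or genes that a setting uses. Precision is limited by 2 or 3 libraries a group.

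Counts of calls follow as all genes, then clock genes, then wider genes. For the femoral knockout comparison (535, 3 and 2), no filter gave 1121, 5 and 6, the muscle covariate 156, 1 and 1, and DESeq2 1743, 5 and 8; without control 2 of both vessels, chosen after seeing the data, 67 genes were called. For the carotid knockout comparison (197, 2 and 1), no filter gave 444 and 4 wider genes, the muscle covariate 1 clock gene, the compared groups alone 26, 1 and 0, DESeq2 924 and 7 wider genes, and the setting without control 2 of both vessels 99, 4 and 2. Between control vessels (1326, 1 and 4), the covariate gave 644 and 2 wider genes, DESeq2 2228, and the setting without control 2 of both vessels 420, 0 and 1. Between knockout vessels (1047, 0 and 1), the covariate gave 628, the compared groups alone 578 and 0 wider genes, DESeq2 2025 and 4 wider genes, and no filter 2 wider genes. For the difference of the knockout effects (1, 0 and 0), no filter gave 17, the covariate 0, DESeq2 153, and the setting without control 2 of both vessels 0; the compared groups alone could not be fitted there.

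Leaving out each library gave 78 to 1317, 1 to 3 and 0 to 3 calls for the femoral and 60 to 233, 0 to 4 and 0 to 1 for the carotid knockout comparison. It gave 685 to 1408, 0 to 1 and 1 to 4 between control vessels, 459 to 1182, 0 to 0 and 0 to 2 between knockout vessels, and 0 to 3, 0 to 0 and 0 to 0 for the difference. The lowest femoral count, 78, came without femoral control 2 and the highest, 1317, without femoral knockout 3; the lowest carotid count, 60, came without carotid control 3.

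With the replicate block, which pairs the femoral samples, the femoral comparison gave 1224 genes and 7 wider genes with numbers from titles, and 1261, 6 clock genes and 6 wider genes with numbers from descriptions. The numbers did not pair the carotid samples of the 2 genotypes. Whether they pair the knockout vessels cannot be told (0.131 and 0.104 by title). In the carotid comparison the block gave 78 genes, 2 clock genes and 0 wider genes with numbers from titles. With numbers from descriptions it gave 5 clock genes and 2 wider genes. The count over all genes under that numbering is not given here, and the 78 genes are not its background. Nothing is therefore read from the 5 clock genes. Between knockout vessels the block gave 1 clock gene, Per2, under either numbering, and 1272 genes and 5 wider genes with numbers from titles. For the difference it gave 9 or 3 genes.

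Reversed signs were found in vessel comparisons of members that had not passed. With the muscle covariate these were Clock (0.015), Nr1d2 (-0.024) and Dbp (-0.19) in knockouts and Nr1d1 (-0.16) in controls. With the block from titles they were Clock (0.0045) and Per3 (0.063) in knockouts, and without control 2 of both vessels Nr1d1 (-0.13) in controls. Leaving out single libraries gave control differences of -0.11 to 0.32 for Arntl, -0.44 to 0.70 for Nr1d1, -0.69 to 0.38 for Nr1d2 and -1.50 to 0.80 for Dbp. It gave knockout differences of -0.037 to 0.33 for Arntl, -0.14 to 0.064 for Clock, -0.14 to 0.049 for Per3 and -0.19 to 0.63 for Dbp. Without the 2 libraries farthest from the median, the correlations within groups became 0.70 for Arntl with Npas2 and 0.84 for Nr1d1 with Dbp, neither past a test that 9 libraries can hardly pass, and 0.067 for Arntl with Nr1d1 and -0.21 for Per2 with Per3. With same-numbered femoral libraries permuted together, chosen after seeing the data, the r values stay as they are (0.77 for Arntl with Npas2, -0.83 for Arntl with Dbp); the first no longer passed and the second did.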

Other observations

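The genes other than the 10 members whose level was most like that of Arntl across the 11 libraries were Nnt (r = 0.967), Unc119b (r = 0.947), Mrps12 (r = 0.943) and Zfp131 (r = 0.938). Nnt encodes the mitochondrial transhydrogenase that makes NADPH, and Mrps12 a mitochondrial ribosomal protein. Mrps12 had 19.2 to 22.8 CPM in the 6 controls and 8.49 to 8.77 CPM in the 5 knockouts, and Nnt 53.4 to 64.6 CPM in controls and 26.6 to 33.1 CPM in knockouts. For Dbp the most alike were Tef (r = 0.967), Sphk2 (r = 0.947), Xpa (r = 0.919) and Lipg (r = 0.916). Sphk2 shares 741 bases with Dbp on the opposite strand, and Xpa encodes a DNA repair protein. For Nr1d1 they were Fam76a (r = 0.887), Sphk2 (r = 0.886), Hlf (r = 0.874) and Nipal3 (r = 0.871). These likenesses are over all 11 libraries and include the difference between knockouts and controls.

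Among the clock genes themselves, over the same 11 libraries, Dbp and Nr1d2 were the most alike of the pairs with Dbp (r = 0.996), and Arntl was most alike to Clock (r = 0.946) and most opposite to Per3 (r = -0.935). Of the pairs with Dbp, Per2 had the r of smallest size (0.44), and of those with Arntl, Cry1 (0.51). Within groups, the standard deviation of log2 CPM ran from 0.12 for Clock to 1.01 for Dbp. These points share library, depth and group, and the values are descriptions.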
